A study of Caenorhabditis elegans with 24 samples.

Results

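The genes described here encode cyclins and cell-cycle kinases of Caenorhabditis elegans: the B-type cyclins cyb-1, cyb-2.1, cyb-2.2 and cyb-3, the E-type cyclin cye-1, the A-type cyclin cya-1, the D-type cyclin cyd-1, and the kinases cdk-1, cdk-2 and cdk-4. They were taken by name and not ranked by their values, though with earlier results of these data known. They make up 10 of the 43800 gene entries in the count table. All 10 had enough counts to be tested among 15871 genes. RNA came from whole hermaphrodites of 4 strains, each with 3 fed and 3 starved libraries, or 24 libraries in 8 groups. The strains were the wild type N2 and mutants carrying efk-1(ok3609), zip-2(tm4248) or cep-1(gk138), written below as efk1, zip2 and cep1. The products are the kinase that phosphorylates eEF2 (EFK-1), a bZIP transcription factor (ZIP-2) and the p53 homolog of the worm (CEP-1). All animals grew from synchronized L1 larvae on OP50 bacteria to mid-L4, when the fed animals were frozen. The starved animals were washed in M9 buffer, kept without bacteria for 8 h and then collected, so they were also 8 h older, and food and age cannot be told apart. The labels do not say that replicates were separate cultures, so p-values measure the spread between these libraries, which may be technical.

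Cyclins are the regulatory subunits of cyclin-dependent kinases, which have little activity alone. Cyclin D with CDK-4 promotes entry into the cell cycle in G1, cyclin E with CDK-2 drives entry into S phase, and A- and B-type cyclins with CDK-1 drive entry into and passage through mitosis and meiosis. Cyclin proteins are destroyed by ubiquitin ligases within each cycle, so a transcript level is not a measure of kinase activity. In late-larval hermaphrodites most dividing cells are in the germline, where the gonad makes sperm and then, towards adulthood, oocytes that are loaded with maternal mRNA.

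Library totals ranged from 14622266 to 30266282 counts. The efk-1 transcript was lower in efk1 than in N2, at 8.31 ± 1.08 against 34.9 ± 4.67 CPM (counts divided by the TMM-scaled library total, the unit of all levels here; SD, n = 3) in fed animals, and zip-2 was at 160 ± 33.7 CPM in fed zip2 against 281 ± 44.4 CPM in fed N2, a difference that was not called (adjusted p = 0.258). The cep-1 transcript was at 40.4 ± 10.9 CPM in fed libraries labelled cep1 and 31.9 ± 17.1 CPM in fed N2, so its level did not mark that genotype, and these are called libraries labelled cep1 throughout. Some libraries stood apart for the genes described here. Starved replicate 2 had the highest level of its group for 9 of the 10 genes in N2, 9 in efk1 and 8 in zip2. These libraries also had the lowest TMM scaling factors of their groups, at 0.8365, 0.7785 and 0.6515, which raise CPM above that from plain totals. The part of this scaling in their high levels was not tested. Among fed libraries labelled cep1, replicate 1 was highest and replicate 3 lowest for 10 of 10. The share of all genes highest or lowest in these libraries is not given here. These counts are therefore not shown to be particular to the 10 genes.

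The genes lie on 6 chromosomes, given here in the WBcel235 build with the Ensembl release's gene models, and all are protein coding. The B cyclins cyb-1 (chromosome IV, 10735216 to 10737177, plus strand, up to 6 exons) and cyb-2.1 (IV, 10985985 to 10987426, plus, 4 exons) share a chromosome. The gene cyb-2.2 is on chromosome I (4114861 to 4116370, plus, 4 exons) and cyb-3 on V (15395696 to 15397353, plus, up to 5 exons). Their partner cdk-1 is on III (9747472 to 9748852, plus, 5 exons). Of the others, cye-1 is on I (6780799 to 6784397, plus, up to 8 exons), cdk-2 also on I (3410013 to 3416368, plus, up to 7 exons), and cya-1 on III (9106699 to 9109272, minus, 6 exons). The gene cyd-1 is on II (12980591 to 12993117, plus, up to 7 exons) and cdk-4 on X (13515856 to 13518911, minus, 5 exons). Of the 10, cya-1 overlaps another protein-coding gene, dos-1, which lies on the plus strand. Whether counting used strand is not given in the sources used here, so reads from these overlapping genes may not have been kept apart.

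The levels spanned a wide range, with the B cyclins and cdk-1 highest in fed N2. Per kilobase of exon, mean levels in fed N2 were 231 CPM for cyb-3, 192 for cyb-1, 108 for cdk-1, 66.1 for cyb-2.2 and 39.5 for cyb-2.1. The other genes followed at 23.9 CPM per kilobase for cye-1, 10.1 for cya-1, 2.97 for cdk-4, 2.36 for cyd-1 and 1.12 for cdk-2. Replicates of neighbouring genes in that order overlapped for cyb-2.2 with cyb-2.1, for cyb-2.1 with cye-1, for cdk-4 with cyd-1, and for cyd-1 with cdk-2. The kinases cdk-2 and cdk-4 were therefore present at far lower transcript levels than cdk-1, and their lowest libraries held 19 and 41 counts. In starved N2 the order was the same except that cyd-1, at 4.06 CPM per kilobase, stood above cdk-4, at 3.48, and their replicates overlapped.

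The pair cyb-2.1 and cyb-2.2, close paralogs, are not independent measurements. Their estimated counts were fractional in 24 of 24 libraries each, while their sum was whole in 23 of 24 (within 1e-04), as when reads shared by a pair are divided between its members. Their split, cyb-2.1 over cyb-2.2, lay between 0.488 and 0.776 in all libraries. It was higher in starved than in fed libraries, at 0.616 to 0.687 against 0.488 to 0.602 in N2 and 0.651 to 0.731 against 0.592 to 0.622 in zip2. In libraries labelled cep1 it was at 0.697 to 0.776 against 0.584 to 0.681, and in efk1 the ranges of 0.658 to 0.744 and 0.572 to 0.659 overlapped. Counts of genes that changed with starvation are therefore also given with both summed as 1 gene.

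Cyclin transcripts were higher in starved than in fed animals, and the B cyclin cyb-3 had the largest change of the 10 in efk1 and zip2 and over the 4 strains. In N2, 5 of the 10 genes were called higher in starved animals (adjusted p under 0.05 over the 15871 genes by edgeR's quasi-likelihood test), against 15.9% of all genes. In efk1 3 were called higher, against 13.7% of all genes, in zip2 5, against 17.6%, and in libraries labelled cep1 2, against 12.3%. None of the 10 was called lower in any strain, where 16.4%, 11.6%, 16.8% and 16.1% of all genes were. With cyb-2.1 and cyb-2.2 summed the counts were 4, 2, 4 and 2. The sign of the change was positive for 10, 8, 10 and 10 of the genes, where 50%, 53.4%, 50.7% and 50.3% of all genes were positive. Their median log2 fold change was 0.91 in N2, 0.64 in efk1, 0.87 in zip2 and 0.47 in libraries labelled cep1, where that of all genes was 0, 0.06, 0.01 and 0.01. Starved libraries lay wholly above fed libraries for 8, 6, 8 and 2 of the 10, as they did for 27%, 28%, 23.2% and 16.4% of all genes.

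**Figure D1:**
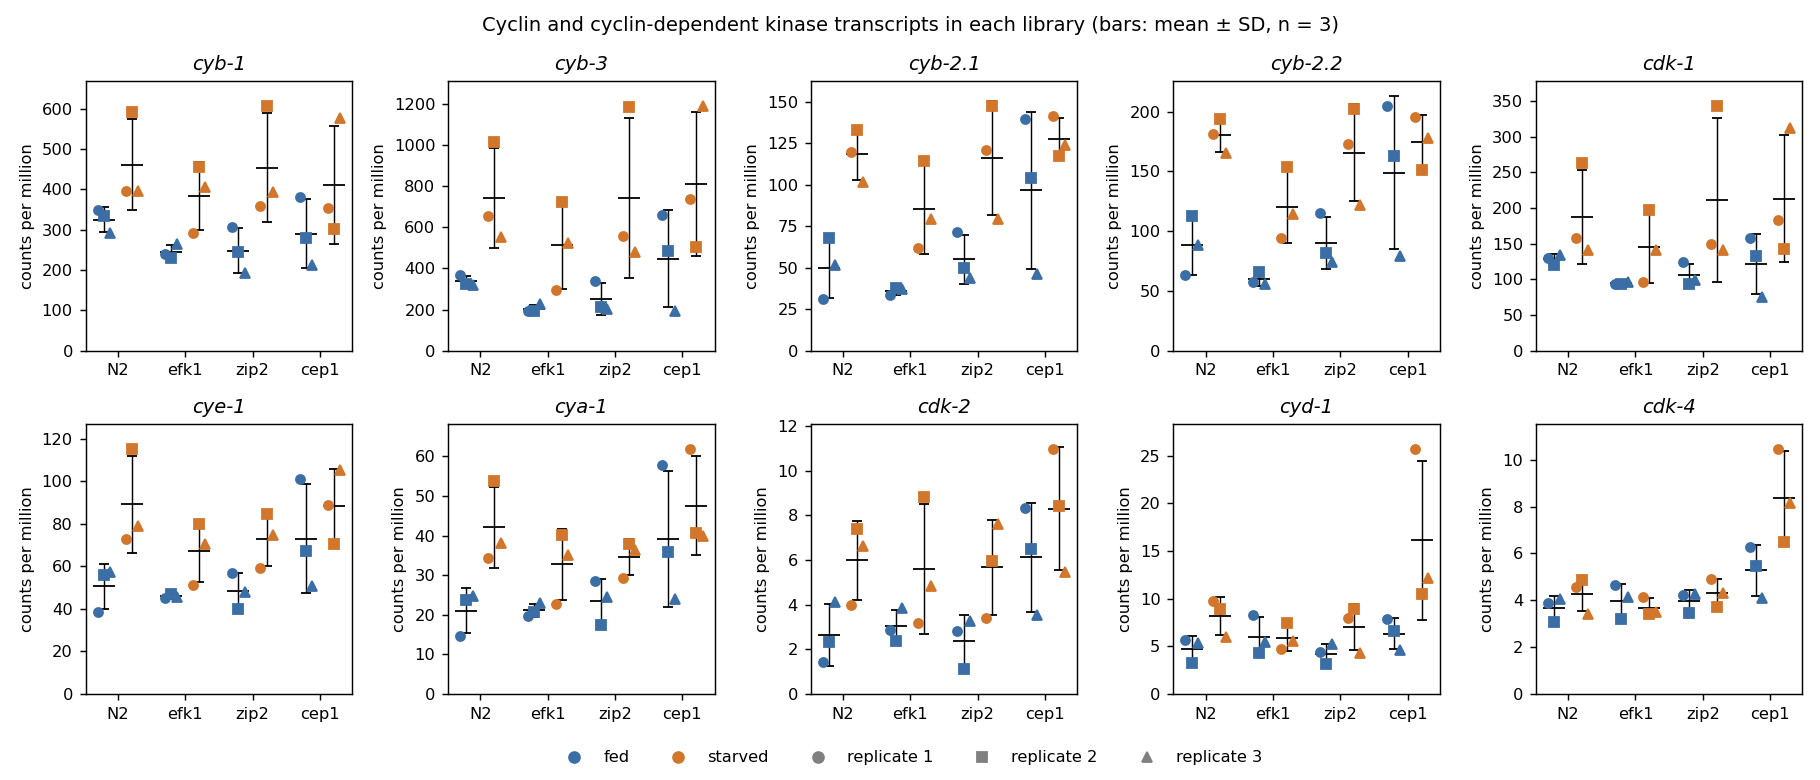
Level of each of the 10 transcripts in CPM (vertical axis, from 0, a scale per gene) in the 24 libraries, by strain (horizontal axis) and food (colour), with replicate numbers as symbols and bars for mean ± SD (n = 3). For cyb-3 all starved N2 libraries (552 to 1015 CPM) lie above all fed N2 libraries (319 to 369 CPM), while cdk-4 stays between 3.08 and 4.92 CPM in fed and starved N2, efk1 and zip2.

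The gene cyb-3 encodes a B3-type cyclin needed for chromosome segregation. It had the highest level per kilobase of the 10 in every group but fed efk1, where cyb-1 was at 145 and cyb-3 at 140 CPM per kilobase. It stood at 369, 325 and 319 CPM in fed N2 and at 653, 1015 and 552 CPM in starved N2, in replicate order. It stood at 193, 192 and 228 CPM in fed efk1 and 293, 722 and 525 CPM in starved efk1. In zip2 it was at 339, 211 and 202 CPM in fed and 559, 1186 and 481 CPM in starved libraries. In these 3 strains every starved library was above every fed one, and replicate 2 was the highest starved library each time. The log2 fold changes were 1.13 in N2 (SE 0.42, adjusted p = 0.0451), 1.33 in efk1 (SE 0.43, adjusted p = 0.0258) and 1.56 in zip2 (SE 0.43, adjusted p = 0.00865). Fed libraries labelled cep1 held 662, 487 and 194 CPM and starved ones 738, 502 and 1191 CPM. There the groups overlapped, the fed libraries differed among themselves more than in any other strain, and the log2 fold change of 0.86 (95% interval -0.02 to 1.73) was not called.

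The transcript of cyb-1, the other abundant B cyclin, changed less. It stood at 350, 334 and 291 CPM in fed N2 and 396, 592 and 395 CPM in starved N2, and at 306, 246 and 193 against 360, 608 and 394 CPM in zip2. Starved libraries were above fed ones in both strains, and the change was called in zip2 (log2 0.87, SE 0.28, adjusted p = 0.0208) but not in N2 (0.51, adjusted p = 0.165). The values for cdk-1, the mitotic kinase, were 130, 120 and 134 CPM in fed N2 and 158, 263 and 141 CPM in starved N2. In zip2 cdk-1 was at 124, 94.3 and 99.8 CPM in fed and 150, 344 and 141 CPM in starved libraries, where it was called higher (log2 0.99, SE 0.36, adjusted p = 0.0352). In CPM, replicate 2 of the starved libraries was far above the other 2 in each of these groups, and its TMM factor was the lowest. In starved zip2 the counts before scaling were 8633, 6719 and 6315 for cyb-1 and 3597, 3802 and 2259 for cdk-1. Those libraries held 22492679, 16975085 and 15245211 counts in all. Neither gene was called in efk1, where log2 changes were 0.65 and 0.62, or in libraries labelled cep1, where they were 0.50 and 0.80.

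The balance of the abundant B cyclins differed between fed and starved libraries in N2, efk1 and zip2. The ratio of cyb-3 to cyb-1 counts, not corrected for length, averaged 1.04 with food and 1.59 without in N2 (SD 0.064 and 0.168, n = 3 each). It ran from 0.803 to 0.861 in fed efk1 and from 1.01 to 1.58 in starved efk1, and from 0.859 to 1.11 against 1.22 to 1.95 in zip2, so fed and starved did not overlap in these 3 strains. In libraries labelled cep1 the ranges overlapped, 0.914 to 1.74 fed and 1.66 to 2.09 starved. The ratio of cyb-1 to cdk-1 counts was 2.54 ± 0.327 in fed and 2.52 ± 0.275 in starved N2. These ratios are given as descriptions, with no test.

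The lower B cyclins rose in the same 3 strains. The level of cyb-2.1 was 30.9, 68.0 and 51.4 CPM in fed N2 and 120, 133 and 102 CPM in starved N2. For cyb-2.2 the values were 63.4, 113 and 88.2 CPM in fed and 182, 194 and 166 CPM in starved N2. Starved libraries exceeded fed libraries for both, and replicate 1 was the lowest fed library. Log2 fold changes of cyb-2.1 were 1.24 in N2 (SE 0.34, adjusted p = 0.00895), 1.24 in efk1 and 1.07 in zip2, and those of cyb-2.2 were 1.03 (SE 0.29, adjusted p = 0.0107), 1.01 and 0.87, all called. Their sum gave 1.11, 1.1 and 0.95, also called. In libraries labelled cep1 the values were 0.40 for cyb-2.1 and 0.23 for cyb-2.2, neither called. There the fed libraries already held 140, 104 and 46.0 CPM of cyb-2.1 and the starved ones 142, 117 and 124 CPM.

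The E-type cyclin cye-1, whose product activates CDK-2, was at 38.5, 56.0 and 57.2 CPM in fed N2 and 72.8, 115 and 79.2 CPM in starved N2, without overlap. The A-type cyclin cya-1 was at 14.5, 23.8 and 24.7 CPM in fed and 34.4, 53.8 and 38 CPM in starved N2, also without overlap. Both were called higher in N2, with log2 fold changes of 0.82 (SE 0.25, adjusted p = 0.0184) and 1.00 (SE 0.30, adjusted p = 0.0156). They were not called elsewhere, with 0.55 and 0.63 in efk1, 0.59 and 0.55 in zip2, and 0.27 and 0.28 in libraries labelled cep1. The kinase cdk-2 was at 1.41, 2.32 and 4.14 CPM in fed N2 and 3.99, 7.37 and 6.61 CPM in starved N2, with 1 fed library above the lowest starved one. Its log2 fold changes of 1.19 in N2 (adjusted p = 0.0563) and 1.23 in zip2 (adjusted p = 0.051) were as large as those of called genes but had a wider error (SE 0.47 and 0.48).

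The G1 pair was called higher in starved than in fed animals only in libraries labelled cep1, where none of the rest was called. Its response there was not called different from that in N2. The D cyclin cyd-1 was at 7.84, 6.56 and 4.59 CPM in fed and 25.7, 10.4 and 12.2 CPM in starved libraries labelled cep1. The levels of its partner cdk-4 were 6.26, 5.47 and 4.11 CPM in fed and 10.5, 6.48 and 8.14 CPM in starved libraries labelled cep1. For both genes the starved libraries lay above the fed ones, and starved replicate 1 was the highest. Both were called higher, cyd-1 by 1.35 on the log2 scale (SE 0.37, adjusted p = 0.00919) and cdk-4 with 0.66 (SE 0.24, adjusted p = 0.04). In N2, cyd-1 was at 5.68, 3.24 and 5.32 CPM in fed and 9.72, 8.86 and 5.93 CPM in starved libraries (log2 0.78, adjusted p = 0.106), and cdk-4 at 3.87, 3.08 and 4.04 against 4.55, 4.87 and 3.43 CPM (log2 0.22, adjusted p = 0.493). In efk1 the changes were -0.02 for cyd-1 and -0.11 for cdk-4, the only negative values among the 40 gene-by-strain changes.

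**Figure D2:**
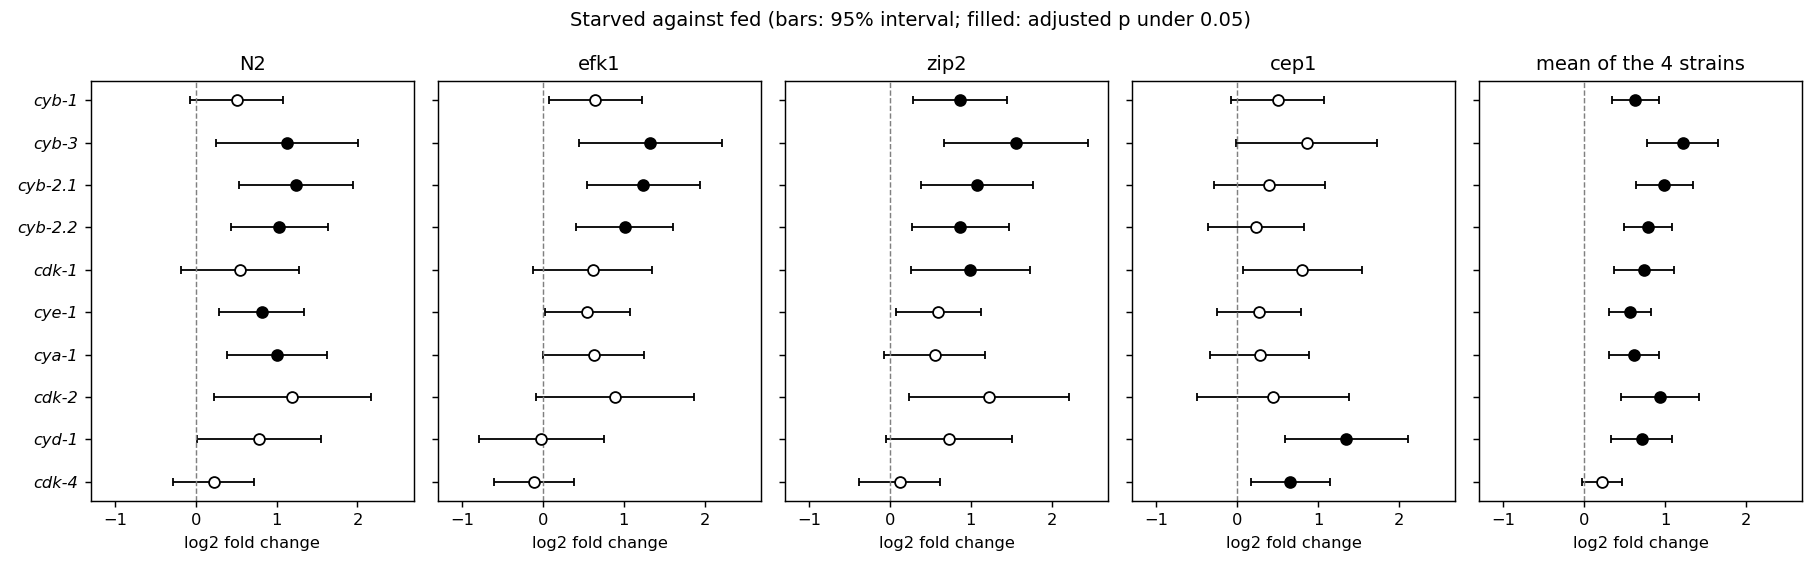
Log2 fold change of starved over fed libraries (horizontal axis) for each of the 10 genes (vertical axis) in the 4 strains and for the mean of the 4 strains, with 95% intervals as bars and filled points where the adjusted p was under 0.05. Averaged over the strains, 9 genes are called, from 0.56 for cye-1 to 1.22 for cyb-3, and the interval of cdk-4 (-0.03 to 0.47) includes 0.

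Several of these calls were lost when 1 library was left out. Without fed N2 replicate 1 none of the 10 was called in N2, and without starved N2 replicate 2 the calls of cyb-3, cye-1 and cya-1 were lost. The call of cyb-3 in N2 was kept in 1 of 6 such fits and that of cyb-2.1 in 5 of 6. None of the 10 was called in efk1 or zip2 without the starved replicate 2 of that strain. In libraries labelled cep1 none was called without fed replicate 3 or without starved replicate 1. The share of all genes called in such fits is not given here, so these losses are not shown to be particular to the 10 genes. The sign of each call was the same in every one of these fits. With all libraries kept, cyb-3 in N2 also missed the threshold with DESeq2's size factors, with no expression filter or with the replicate number as a block (adjusted p from 0.0544 to 0.0651). The changes of cdk-2 were called by DESeq2 in N2 (adjusted p = 0.0351) and zip2 (adjusted p = 0.0246). The change of cdk-4 in libraries labelled cep1 was not called with no expression filter (adjusted p = 0.104).

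The mean of the 4 strains' changes, a contrast added after the values of the single strains had been seen, was steadier. By edgeR 9 of the 10 genes were called higher, where 32.7% of all genes were called higher and 30.8% lower. With cyb-2.1 and cyb-2.2 summed the count was 8. Each of the 24 fits that left out 1 library also called 9. The largest changes were those of cyb-3 (log2 1.22, SE 0.21), cyb-2.1 (0.99, SE 0.17) and cdk-2 (0.94, SE 0.23), and the smallest called was that of cye-1 (0.56, SE 0.13). The gene cdk-4 was at 0.22 (SE 0.12, adjusted p = 0.11). The median of the 10 was 0.73 and that of all genes 0.03.

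Differences between strains in the starvation response were not detected for any of the 10. For each of efk1, zip2 and libraries labelled cep1 against N2, 0 of 10 responses were called different, also 0 at an unadjusted p under 0.05 and 0 by DESeq2, where 0.246%, 0% and 0% of all genes were called by edgeR. The intervals were wide. In efk1 the response of cyd-1 was lower than in N2 by a log2 difference of -0.80 (95% interval -1.89 to 0.28) and that of cyb-3 differed by 0.20 (-1.03 to 1.43). In zip2 that of cyb-3 differed by 0.43 (-0.80 to 1.66). In libraries labelled cep1 the difference was -0.84 for cyb-2.1 (-1.81 to 0.14), -0.72 for cya-1 (-1.59 to 0.15), 0.56 for cyd-1 (-0.51 to 1.64) and 0.44 for cdk-4 (-0.26 to 1.14). The differences in which genes were called between strains are thus not shown to be differences in response.

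In fed animals no mutant was called different from N2 for any of the 10 genes. All mutants were compared with the same N2 libraries. The shares of all genes called were 1.51% for efk1, 1.13% for zip2 and 4.89% for libraries labelled cep1. DESeq2 also called 0 of the 10 in each, and the counts at an unadjusted p under 0.05 were 0, 0 and 6. The shares of all genes at that unadjusted threshold are not given here, so the 6 cannot be set against them. Fed efk1 libraries lay below all fed N2 libraries for cyb-1, cyb-3 and cdk-1, 3 of 10 against 12.8% of all genes, with log2 differences of -0.41, -0.72 and -0.44 and adjusted p from 0.753 to 0.875. The summed oocyte markers described below also lay wholly lower there (2230 to 2850 against 3760 to 4580 CPM), as did the germline markers (1710 to 1740 against 1970 to 2280 CPM), and their part in the difference was not tested. In a fit of only the 6 fed efk1 and N2 libraries, cyb-3 was called lower (log2 -0.74, adjusted p = 0.045). Fed libraries labelled cep1 had the largest positive differences, 1.22 for cdk-2 (95% interval 0.25 to 2.2), 0.95 for cyb-2.1 (0.25 to 1.64), 0.90 for cya-1 (0.28 to 1.52) and 0.76 for cyb-2.2 (0.16 to 1.35), with adjusted p from 0.0761 to 0.114. Without fed replicate 3 labelled cep1, these 4 were called. For that fit, and for the fit of only the 6 fed efk1 and N2 libraries, the share of all genes called is not given here.

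In starved animals, with replicate numbers ignored, cdk-4 was the 1 gene of the 10 called between a mutant and N2. It was higher in libraries labelled cep1, at 10.5, 6.48 and 8.14 CPM, than in N2, at 4.55, 4.87 and 3.43 CPM, and the groups did not overlap. The log2 difference was 0.97 (SE 0.24, adjusted p = 0.0179), where 3.33% of all genes were called higher and 4.37% lower. The call was lost without starved replicate 1 labelled cep1 (adjusted p = 0.105), without starved N2 replicate 3 (adjusted p = 0.124), and in a fit of only these 6 libraries. The groups also did not overlap for the D cyclin cyd-1, which makes 2 of 10 where 9.79% of all genes lay wholly higher, with a log2 difference of 0.98 that was not called (adjusted p = 0.106). For zip2 against N2, 0 of 10 were called, with differences from -0.29 to 0.17, where 1.3% of all genes were called.

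Starved efk1 libraries held less of all 10 transcripts than starved N2 libraries by point estimate, from -0.58 for cyb-2.2 to -0.10 for cdk-2, while 56.4% of all genes had a positive difference. None was called when replicate numbers were ignored, where 1.23% of all genes were called lower, nor with the replicate number as a block in the fit of all 24 libraries. Same-numbered starved libraries of efk1 and N2 deviated together (r = 0.537, 0.752 and 0.391 across genes), so the pairs were also compared within a fit of those 6 libraries, which left 2 residual degrees of freedom. In that fit 6 of 10 were called lower, where 13.4% of all genes were called lower and 15.7% higher. They were cyb-2.1 (log2 -0.55, adjusted p = 0.0142), cyb-2.2 (-0.65, adjusted p = 0.00408), cyb-3 (-0.61, adjusted p = 0.0344), cye-1 (-0.44, adjusted p = 0.0153), cya-1 (-0.41, adjusted p = 0.0197) and cdk-1 (-0.42, adjusted p = 0.048). Each of the 6 was lower in efk1 in 3 of 3 pairs, though cdk-1 was at a ratio of 0.998 in the pair of replicate 3. The share of all genes lower in 3 of 3 pairs is not given here. The pair of replicate 1 differed most for 5 of the 6. The 6 include both cyb-2.1 and cyb-2.2, which are not independent and were not summed for this fit. Summed oocyte markers differed in the same direction in each pair, at 3970, 9500 and 7220 CPM in starved efk1 and 8570, 13000 and 7660 CPM in starved N2. Germline markers were at 1670, 2390 and 2140 against 2360, 3060 and 2360 CPM. The part of these markers in the difference was not tested. The same paired fit of starved zip2 against N2, where r was 0.538, 0.693 and 0.647, called 0 of 10, with 1.71% of all genes called.

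**Figure D3:**
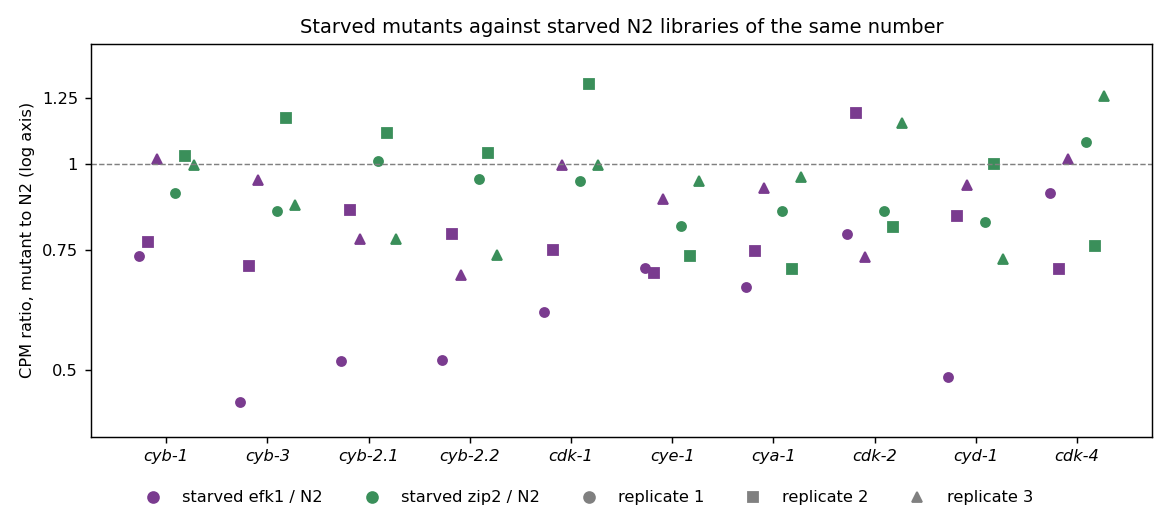
Ratio of CPM in a starved mutant library to CPM in the starved N2 library of the same replicate number (vertical axis, log scale, 1 marked by the dashed line) for each gene (horizontal axis), with efk1 and zip2 as colours and replicate numbers as symbols. For cyb-3 the efk1 ratios are 0.449, 0.711 and 0.95, and those of zip2 are 0.856, 1.17 and 0.871.

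Genes that act directly on cyclin and CDK complexes also differed between starved and fed animals, on both the activating and the inhibiting side. For these lists and the ones that follow, the shares of all genes called higher were 15.9% in N2, 13.7% in efk1, 17.6% in zip2 and 12.3% in libraries labelled cep1. Of 10 listed CDK inhibitors, Wee1 kinases and Cdc25 phosphatases, 8 were tested and 6 were called higher in N2, 4 in efk1, 5 in zip2 and 4 in libraries labelled cep1, where 1 was called lower. Median log2 changes were 0.90, 0.80, 0.82 and 0.65. The phosphatases cdc-25.2 and cdc-25.3, of the family that activates CDKs, had the largest changes in N2, with cdc-25.2 from 7.76 ± 1.03 to 20.4 ± 5.56 CPM (log2 1.39, adjusted p = 0.0105) and cdc-25.3 from 4.13 ± 1.88 to 12.2 ± 1.72 CPM (log2 1.55, adjusted p = 0.0129). The best measured family member, cdc-25.1, rose from 79.0 ± 2.39 to 146 ± 43.8 CPM (log2 0.88, adjusted p = 0.0397). The inhibitory kinase wee-1.3 rose as well, from 81.5 ± 8.90 to 156 ± 21.1 CPM (log2 0.93, adjusted p = 0.00837), so activator and inhibitor transcripts were higher together.

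Of the CDK inhibitors of the p27 family, cki-2 was called higher in all 4 strains, with log2 changes of 0.67, 0.75, 0.83 and 0.63. The other, cki-1, which is needed to arrest cell division in starved L1 larvae, was at 15 ± 3.9 CPM in fed and 13.5 ± 0.58 CPM in starved N2 and was called in libraries labelled cep1 alone (9.67 ± 3.02 to 18.9 ± 3.46 CPM, log2 0.96, adjusted p = 0.00409). The phosphatase cdc-25.4 was called lower in those libraries (log2 -0.96, adjusted p = 0.0229). Its N2 change of -0.69 was not called (adjusted p = 0.0778). The kinase wee-1.1 was near 0 (0.0164 CPM in fed and 0.048 CPM in starved N2) and was not tested.

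Among 16 other cyclins and CDKs, 7 were called higher in N2, 4 in efk1, 3 in zip2 and 3 in libraries labelled cep1, and 0 lower, with median log2 changes of 0.71, 0.32, 0.39 and 0.19. The count in zip2 was near the 17.6% of all genes. The CDK-activating kinase cdk-7 was called in all 4 strains (0.81, 0.71, 0.89 and 0.65). The Mediator kinase cdk-8 had the largest change in N2, from 17.1 ± 7.55 to 39.4 ± 8.07 CPM (log2 1.2, adjusted p = 0.0182). The CDK-binding subunit cks-1 was called in N2, efk1 and libraries labelled cep1 (0.77, 0.68 and 0.67), and cyh-1, the cyclin partner of CDK-7, was not called in N2 (0.90, adjusted p = 0.106).

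Of 10 genes of the Rb, E2F and DREAM group, which represses or activates cell-cycle transcription, 6 were called higher and 1 lower in N2, 4 and 1 in efk1, 5 and 1 in zip2, and 1 and 0 in libraries labelled cep1, with medians of 0.71, 0.60, 0.70 and 0.45. The lower gene was the E2F7/8-like efl-3, which fell from 16.5 ± 4.16 to 4.94 ± 2.4 CPM in N2 (log2 -1.72, adjusted p = 0.022). Its changes were -1.63 in efk1 and -1.95 in zip2, both called, and -0.42 in libraries labelled cep1, which was not. The E2F genes efl-1 (0.86) and efl-2 (0.97) were called higher in N2. The Rb homolog lin-35 was not called in N2 (0.63, adjusted p = 0.387), and neither was dpl-1, the DP partner of E2F (0.72, adjusted p = 0.0578).

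Of 23 matched genes of cyclin degradation, 9 were called higher in N2, 5 in efk1, 12 in zip2 and 4 in libraries labelled cep1, and 0 lower, with medians of 0.60, 0.49, 0.65 and 0.36. The gene zyg-11, which encodes a substrate receptor of a CUL-2 ubiquitin ligase that acts in meiosis, rose from 28.6 ± 4.06 to 84.5 ± 7.03 CPM in N2 (log2 1.57, adjusted p = 0.000175). It was already at 67.1 ± 26.4 CPM in fed libraries labelled cep1, higher than in fed N2 (log2 1.23, adjusted p = 0.0112). The anaphase-promoting complex subunit emb-1 (0.92) and the complex's activator fzr-1 (0.90) were also called in N2, and the other activator, fzy-1, was not (0.65, adjusted p = 0.0788). Of 24 mitotic kinases and spindle genes, 6 were called higher in N2, 2 in efk1, 10 in zip2 and 3 in libraries labelled cep1, and 0 lower, with medians of 0.57, 0.56, 0.70 and 0.34. The count in efk1 was below the 13.7% of all genes and that in libraries labelled cep1 near their 12.3%. The changes of zen-4, a kinesin of cytokinesis (1.01), and mdf-2, the Mad2 checkpoint protein (0.88), were the largest called in N2, and the Polo kinase plk-1 was not called there (0.66, adjusted p = 0.114). Of the genes named in these lists, wee-1.3, efl-1, efl-2 and zyg-11 were called in N2 in 6 of 6 fits that left out 1 library. The genes cki-2, cks-1, efl-3 and zen-4 were called in 3 of 6 and cdc-25.1 in 2 of 6, and starved N2 replicate 2 and fed N2 replicate 1 were the libraries without which most of these calls were lost. In efk1, cdk-7, wee-1.3 and efl-3 were called in 1 of 6 and cks-1 in 0 of 6, while cki-1 in libraries labelled cep1 was called in 6 of 6.

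Markers of oocytes moved with these genes. The sum of 11 oocyte markers, all detected in every group, ran from 3760 to 4580 CPM in fed and from 7660 to 13000 CPM in starved N2, from 2230 to 2850 and 3970 to 9500 CPM in efk1, and from 2170 to 4720 and 6550 to 14000 CPM in zip2. Fed and starved libraries did not overlap in these 3 strains. In libraries labelled cep1 the sums overlapped, at 3000 to 9890 CPM fed and 6740 to 16700 CPM starved, as those of cyb-3 did. Of the 11 markers, 7 were called higher in N2, 10 in efk1, 11 in zip2 and 0 in libraries labelled cep1. The sum of 12 general germline markers changed less, from 1970 to 2280 CPM in fed and 2360 to 3060 CPM in starved N2. The sum of 9 sperm markers was at 459 to 596 CPM in fed and 396 to 532 CPM in starved N2. Of these 9, 2 were called lower in N2, 2 in efk1, 1 in zip2 and 4 in libraries labelled cep1. None was called higher, and median log2 changes were -0.38, -0.42, -0.46 and -1. The shares of all genes called lower were 16.4%, 11.6%, 16.8% and 16.1%. Sperm markers were lowest in libraries labelled cep1, at 266 to 383 CPM fed and 122 to 378 CPM starved. The 8 early embryo markers summed to at most 5.49 CPM in any library, with med-1 and pes-10 at 0 in all fed N2 libraries, and were higher in starved N2 (1.14 to 2 CPM) than in fed N2 (0.295 to 0.529 CPM). Of the somatic lists, the sum of 4 intestine markers was lower without overlap in starved libraries of every strain. In N2 it was at 2470 to 3070 CPM fed and 409 to 709 CPM starved. In each strain 1 of the 4 markers was called lower. Their median log2 changes were -0.45 in N2, -0.21 in efk1, -0.24 in zip2 and -0.59 in libraries labelled cep1. The sum therefore does not stand for each of the 4. The sum of 3 muscle markers was at 3560 to 4890 CPM fed and 3660 to 4320 CPM starved in N2. That of 5 markers of hypodermis and seam was at 63.9 to 125 and 51.5 to 69.4 CPM.

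Across the 24 libraries the level of cyb-3 followed the oocyte sum closely (Pearson's r = 0.99 on the log2 scale, and 0.98 for deviations from the group means). The values were 0.93 for cyb-1, 0.91 for cdk-1, 0.91 for cyb-2.2, 0.90 for cyb-2.1 and cye-1, 0.79 for cya-1, 0.67 for cdk-2, 0.61 for cyd-1 and 0.43 for cdk-4. For deviations from the group means they were 0.95 for cyb-1, 0.92 for cdk-1, 0.76 for cyb-2.2, 0.73 for cyb-2.1, 0.78 for cye-1, 0.58 for cya-1, 0.30 for cdk-2, 0.36 for cyd-1 and 0.22 for cdk-4. The germline sum gave deviations as close for cyb-1 (0.96), cdk-1 (0.93), cyb-3 (0.96) and cye-1 (0.80). The lowest values over libraries were -0.84 for cdk-4 with the sperm sum and -0.82 for cyb-2.2 with the sum of hypodermis and seam markers. These are descriptions over libraries that share groups, depth and total RNA. The part of any of these markers in the starvation results was not tested. In RNA from whole animals, a change in the number of cells of a type and a change in RNA per cell cannot be told apart.

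**Figure D4:**
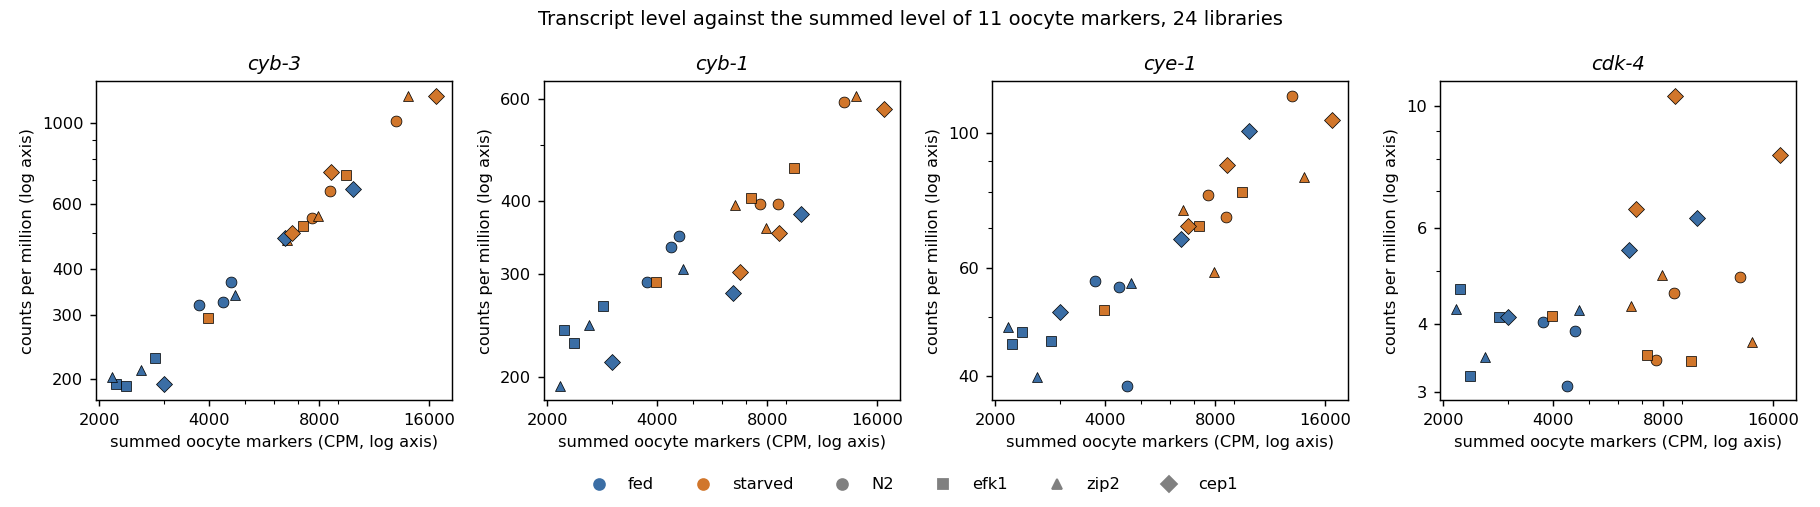
Level of cyb-3, cyb-1, cye-1 and cdk-4 in CPM (vertical axes, log scale) against the summed level of 11 oocyte markers in CPM (horizontal axes, log scale) in the 24 libraries, with food as colour and strain as symbol. The points of cyb-3 lie along a line (r = 0.99) that the fed libraries labelled cep1 also follow, while those of cdk-4 scatter (r = 0.43).

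Within the 10 genes, likeness across the 24 libraries varied from pair to pair. On log2 CPM, r was 0.95 between cyb-3 and cdk-1, 0.93 between cyb-1 and cyb-3, and 0.94 between cye-1 and cya-1. It was 0.91 between cya-1 and cdk-2, and 0.82 between cyd-1 and cdk-4, while cyb-1 and cdk-4 had the lowest value, 0.20. Between cye-1 and its kinase partner cdk-2 it was 0.84, below that of cye-1 with cyb-2.1, cyb-3 and cyb-2.2 (0.89 each), and cya-1 with cyb-2.1 was also at 0.89. The value of 0.99 between cyb-2.1 and cyb-2.2 includes the division of their shared reads. With group means removed the values were 0.96 for cyb-3 with cdk-1, 0.85 for cya-1 with cdk-2, 0.70 for cyd-1 with cdk-4, 0.68 for cye-1 with cdk-2 and 0.79 for cye-1 with cyb-3.

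**Figure D5:**
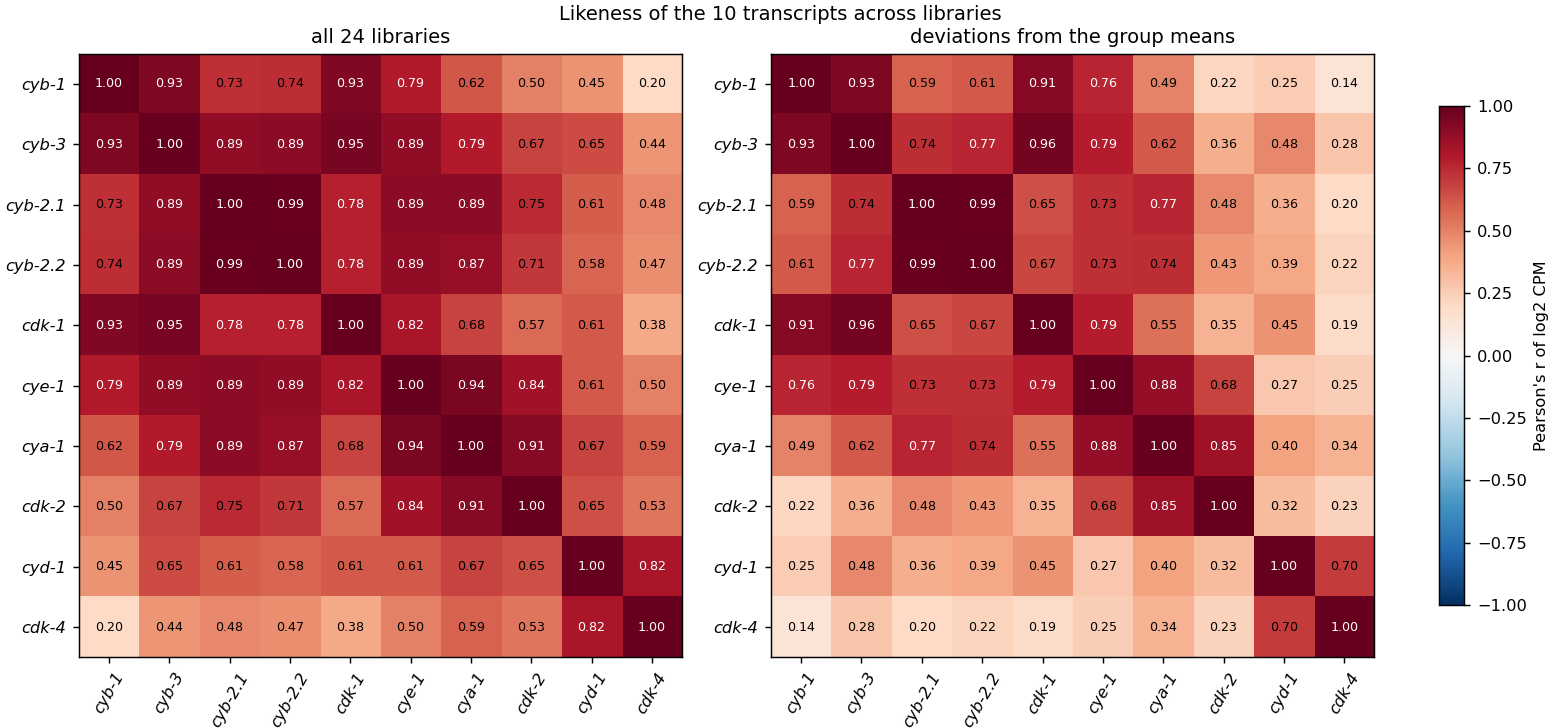
Pearson's r of log2 CPM (colour and printed value) between each pair of the 10 genes (both axes), over the 24 libraries (left) and over the same libraries after removing each group's mean (right). The genes cyb-1, cyb-3 and cdk-1 are close to each other in both panels (0.91 to 0.96), and cyd-1 and cdk-4 are most like each other (0.82 and 0.70).

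Of 10198 genes ranked, those most like cyb-3 were spn-4 (r = 0.993), puf-5 and puf-6 (both 0.992), which encode RNA-binding proteins of the oocyte and early embryo, and puf-5 is also 1 of the oocyte markers above. For cyb-1 they were xpo-2 (0.982), maph-1.2 and nemp-1 (both 0.976), and for cdk-1 aipl-1 (0.984), C36A4.4 and R05H5.3 (both 0.979). The genes most like cyb-2.1 were mcm-10 (0.984), a replication factor, abi-1 (0.983) and lin-54 (0.977), a DREAM subunit, and those most like cyb-2.2 were abi-1 (0.984), picc-1 (0.976) and F55G1.6 (0.975). For cye-1 they were dpl-1 (0.971), C14C11.2 and evl-18 (both 0.966). For cya-1 they were kle-2 (0.976), a condensin II subunit, mes-4 and sumv-1 (both 0.974), and for cdk-2 they were ppm-1.D (0.95), fcd-2 (0.945), a Fanconi anaemia homolog, and hex-3 (0.943). The G1 pair had other companions at lower r, with mab-20 (0.919), a semaphorin, efn-4 (0.915), an ephrin, and Y71A12B.12 (0.906) for cyd-1. For cdk-4 they were sex-1 (0.884) and fox-1 (0.873), which count X chromosomes in sex determination, and unc-119 (0.865). As cdk-4 does, sex-1 and fox-1 lie on the X chromosome, while unc-119 lies on III. With group means removed, r with cdk-4 was 0.702 for sex-1, 0.66 for fox-1 and 0.612 for unc-119.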

How the data were processed

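Libraries were strand-specific mRNA, read as 75-base paired ends, per the labels' protocols. The table the authors deposited holds estimated counts per gene, and the submitters' processing notes name Trimmomatic 0.36, Salmon 0.9.1, edgeR and WBcel235, without their roles. Of nonzero values 9.51% were fractional; estimated counts were rounded to whole numbers. Columns not used numbered 0.

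Genes were filtered with edgeR's filterByExpr (minimum count 10, minimum total 15), scaled by TMM and tested with edgeR 4.0.16 (R 4.3.3) quasi-likelihood fits, 1 mean per group over 24 libraries, with Benjamini-Hochberg adjustment over the 15871 genes tested and calls at an adjusted p under 0.05. CPM uses TMM-scaled totals. Library totals ranged from 14622266 to 30266282 counts, and precision is set by 3 libraries a group. On simulated counts for starved against fed N2 over 15871 genes, 31 of 100 genes changed 2-fold and 88 of 100 changed 4-fold were recovered, with 6 false calls. No other genes were changed in the simulation, while in the real comparison 15.9% of all genes were called higher and 16.4% lower. The adjustment of p therefore works differently there, and these recovery rates need not hold for the real data.

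Alternatives were DESeq2 1.42.0, its size factors in edgeR, no filter, fits of only the groups compared, the replicate number as a block, cyb-2.1 and cyb-2.2 summed, and each library left out. Replicate numbers were taken to pair libraries where all 3 pairs' deviations correlated above 0.1, which held for starved efk1 with N2 and starved zip2 with N2; the labels do not say what a number marks. Log2 CPM for correlations used a prior count of 2, and likeness was ranked among genes averaging log2 CPM 2 or more.

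The 10 genes and the gene and marker lists were chosen with earlier results of these data known. Named besides the 10 were the 2 called genes of each list with the largest change in N2, a set of direct regulators, and the 3 genes most like each of the 10. The mean contrast over 4 strains was added after the data were seen. List members not matched by name were not analysed here.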

Additional observations from a re-analysis of the deposited data

How the results depend on the processing

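Calls for single strains changed when single libraries were left out. The count of the 10 genes called ran, over fits each leaving out 1 library, from 0 to 5 for starvation in N2, 0 to 3 in efk1, 0 to 5 in zip2 and 0 to 3 in libraries labelled cep1. It ran from 0 to 4 for fed and 0 to 1 for starved libraries labelled cep1 against N2, was 0 for the other comparisons with N2 and for the differences in response, and was 9 for the mean of the 4 strains. With no expression filter, starvation in libraries labelled cep1 gave 1 call in place of 2. In fits of only the groups compared it gave 1, starvation in zip2 gave 3, fed efk1 against N2 gave 1, lower, and starved cep1 against N2 gave 0. With the replicate block in such fits, starvation gave 2 in zip2 and 0 in libraries labelled cep1, starved efk1 against N2 gave 6, lower, and starved cep1 against N2 gave 0. The replicate block in the fit of all libraries gave 4 for N2 and 4 for zip2, within 1.5 times the reported counts, and left the other counts as they were. The blocked fit of starved zip2 against N2 called 0, as without the block. For starved efk1 and for starved zip2, 3 of 3 libraries correlated best with the N2 library of their own number, a hint from the data and not from the design; elsewhere the libraries share only a number. The causes of these changes were not tested, except that fits of fewer libraries estimate the spread from fewer. Apart from the paired fits of starved efk1 and zip2 against N2, the shares of all genes called in these alternative fits are not given here. DESeq2 gave 6, 3, 6 and 2 calls for starvation. With all libraries kept, of 868 values of single genes among the 10, 842 stayed on their side of the threshold, of which 22, none of them called, changed sign; 15 lost and 11 gained a call, and no call was reversed. Depth limits cdk-2, cdk-4 and cyd-1 most, with as few as 19, 41 and 54 counts in a library.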
